A study of Mus musculus with 8 samples.

Results

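The genes of respiratory complexes II to V were examined in lenses of mouse embryos at embryonic day 15.5 (E15.5), on Affymetrix mouse genome arrays. Members were the probe sets that the platform annotation gives to 1 gene alone and whose symbol starts with Sdh, Uqcr, Cox4 to Cox8, Cox1 followed by a digit, or Atp5, or is Cyc1 or Cycs. They came to 100 probe sets of 55 genes, among 20380 probe sets of 12393 genes named in this way on the array. By complex these were 4 genes of complex II, 9 of complex III, the electron carrier gene Cycs, 15 of complex IV, 17 of complex V, and 9 genes that the symbol rule takes in but that are not counted as subunits here, namely Cox15 to Cox19, Sdhaf1, Sdhaf2, Sdhaf4 and Cox7a2l.

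Lenses of 4 wild type embryos were compared with lenses of 4 dnBrg1 embryos, both of the same stage and of a mixed background per the labels. The dnBrg1 embryos carry a transgene for Brg1, which drives SWI/SNF chromatin remodeling with energy from ATP, in a mutant form that blocks the normal protein. The transgene is driven by the αA-crystallin promoter, active in postmitotic fiber cells of the lens, and all dnBrg1 embryos come from 1 founder line with wild type littermates as controls. Each array received amplified cDNA from 50 ng of RNA. In the sample descriptions, polysome-bound RNA is named for all 4 wild type samples and for dnBrg1 1 and 2 but not for dnBrg1 3 and 4, although every sample is labelled as total RNA.

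Mitochondrial respiration passes electrons from NADH and succinate to oxygen. Complex II (succinate dehydrogenase) takes electrons from succinate, complex III (cytochrome bc1) passes them from ubiquinol to cytochrome c, and complex IV (cytochrome c oxidase) hands them to oxygen. The proton gradient built by complexes I, III and IV drives complex V, the ATP synthase. Nearly all subunits are encoded in the nucleus and translated in the cytosol, and the lens loses its mitochondria together with its nuclei when the fiber cells of the lens center clear their organelles late in differentiation.

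Many promoters of respiratory genes are known for sites of nuclear respiratory factor 1 (NRF1), a transcription factor named for this group of genes. Its core letters GCGCATGCG, read on both strands, were found in the promoters of 7 of the 41 member genes with a promoter in the RefSeq table (17.1%; 250 bases before to 50 after the start, GRCm38.p6), against 3.31% of 9883 genes on the array with a promoter of the same length. The windows of 30 bases around the match are shown for the 4 genes among these that were called in the comparison below, 3 of them higher and 1 lower in dnBrg1 lenses. Capitals mark the letters of the match, on either strand, and each window is written on the strand of its gene.
Uqcrc1 (chr9:108936668-108936697, plus strand, after the start): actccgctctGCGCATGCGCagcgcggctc
Cycs (chr6:50566612-50566641, minus strand, before the start): ccatgctagctCGCATGCGCgcgcacaaac
Atp5k (chr5:108434430-108434459, minus strand, before the start): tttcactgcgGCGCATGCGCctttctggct
Atp5l (chr9:44920963-44920992, minus strand, before the start): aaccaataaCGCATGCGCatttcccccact
The other 3, Atp5g2, Cox6a1 and Uqcr11, were not called. Of the 34 member genes whose window lacks these letters, 11 were called higher and 4 lower. The ETS letters CCGGAAGT, bound by GABP among others, were in 6 of the 41 promoters (14.6%, against 7.23% of all), and the YY1 letters AAGATGGCG in 2 (4.88%, against 2.82%). A match is a description of the letters and was not tested as a site.

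Values are log2 intensities, fold changes are dnBrg1 over wild type, and a probe set was called at an adjusted p under 0.05 (limma, Benjamini-Hochberg over all 22626 probe sets that are not array controls). The value after ± is the standard error of a log2 fold change unless SD is named. A gene with several probe sets is represented by its brightest, the one with the highest mean over the 8 samples, and a probe set is bright where its mean is at or above the array median of 7.69. Of the 100 member probe sets 80 were bright, and 49 of the 55 genes had a bright one. Intensities of different probe sets are not compared with each other.

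The transcripts of complexes II to V did not move one way. Over the 100 member probe sets 33 were called higher in dnBrg1 lenses, against a background of 19.8% of all probe sets, and 19 were called lower, against 21.0%. On the brightest probe set of each gene 17 of 55 genes were called higher (17.5% of all genes on the array) and 12 lower (23.3% of all), and 26 were not called. With each array centred on its median in place of the deposited scale, the split of called probe sets was 27 higher and 24 lower, so that the share called higher among them was 52.9% and not 63.5%. Centring also moved the median log2 fold change over all probe sets, from -0.08 to -0.12. The background shares after centring are not given here, so the split is not set against the array. The median log2 fold change was -0.04 over the 55 genes and -0.11 over all genes. The largest change was an increase of the complex III core gene Uqcrc1. The expression plot by complex shows that increases and decreases lay side by side within complexes III and V.

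**Figure D1:**
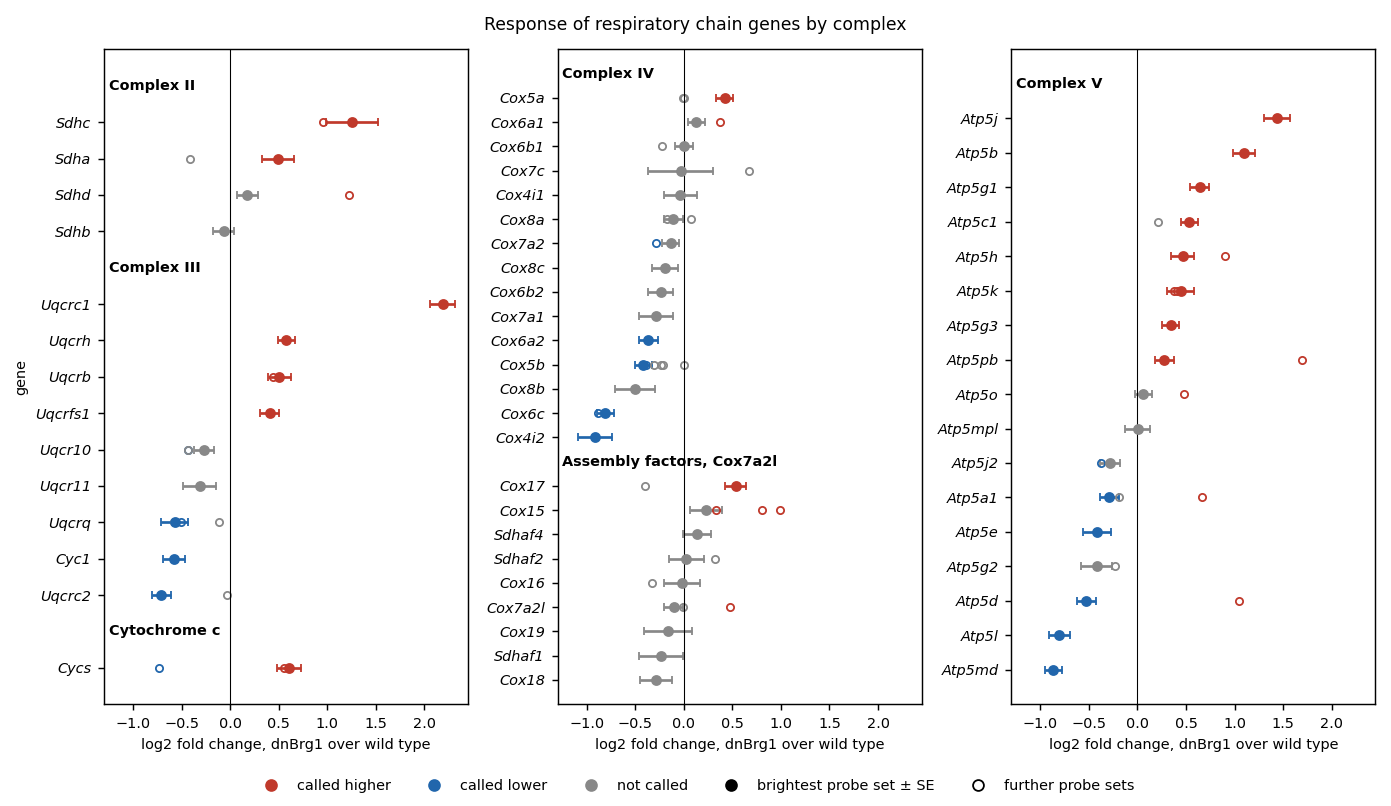
Log2 fold change (dnBrg1 over wild type, 4 samples each) of every member probe set, by complex, with 1 row per gene. Filled points with bars are the brightest probe set ± SE, open points are further probe sets of the same gene, red marks a call higher, blue a call lower and gray no call; Uqcrc1 stands at 2.19, and the complex IV points stay between -0.91 and 0.67.

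The groups did not overlap for 56 of the 100 member probe sets, against a background of 40.1% of all probe sets, and 50 of the 56 were called. Of the 33 increases 14 reached 1.5-fold, and of the 19 decreases 7 did. The share of all probe sets called at that size is not given here. Members spread less between samples than the array as a whole, with a median SD of 0.18 in wild type (0.23 over all probe sets) and 0.10 in dnBrg1 lenses (0.15 over all). Of the 100 members 80 were bright, whereas the backgrounds given here take in all probe sets or genes and were not matched for level. The part of level in the spread, in the lack of overlap and in the shares called was not tested. A whole lens holds epithelial and fiber cells, so that fewer cells of a type and less RNA per cell cannot be told apart for any of these values.

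One property of the arrays moved with genotype. The array controls for Gapdh and β-actin carry probe sets at the 3' and the 5' end of the transcript, and the difference between them was for Gapdh 1.59 ± 0.58 in the 4 wild type and 0.67 ± 0.02 in the 4 dnBrg1 samples (mean ± SD). The β-actin difference was 2.50 ± 0.48 against 0.58 ± 0.06. Neither control overlapped between the genotypes (two-sided exact permutation test, p = 0.0286 for each, the smallest p that 4 against 4 samples allow, and 0.0286 after adjustment over both). With the mean of both differences as a covariate (the control covariate below) 8 of the 52 member calls were kept and 44 were not. Its value is given beside the calls that turned sign or whose value shrank by over 1.5 times, and the other calls that were not kept are named together further below. Since the covariate correlated with genotype at -0.91 over the 8 samples, the part of each cannot be told apart.

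Complex II has 4 subunits, the flavoprotein Sdha, the iron-sulfur protein Sdhb and the membrane anchors Sdhc and Sdhd. On the brightest probe sets Sdha and Sdhc were called higher, Sdhb and Sdhd were not called, and none was called lower. That was 50.0% called, against 40.7% of all genes. Sdha read 11.29, 11.59, 10.84 and 11.30 in wild type 1 to 4 and 11.66, 11.59, 11.95 and 11.79 in dnBrg1 1 to 4, a log2 fold change of 0.49 ± 0.16 (1.41-fold, adjusted p = 0.0366). Wild type 2 and dnBrg1 2 met at the same rounded value, and the call was lost without wild type 1, 3 or 4 or without dnBrg1 1, 3 or 4 (adjusted p from 0.0544 to 0.0966). The difference of this probe set was larger with the control covariate (1.29, adjusted p = 0.0339).

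The second Sdha probe set did not follow the first. It read 11.60, 11.56, 11.25 and 11.45 in wild type and 10.74, 10.78, 11.43 and 11.24 in dnBrg1 1 to 4, a difference of -0.42 ± 0.17 that was not called (adjusted p = 0.0789). dnBrg1 1 and 2 lay below every wild type sample, while dnBrg1 3 and 4 lay within or just below the wild type values. Without dnBrg1 3 this probe set was called lower (-0.54, adjusted p = 0.0283). Sdha was one of the genes to which the study scaled its qRT-PCR. Of the others on that list B2m rose on the arrays by 0.63 ± 0.11 (adjusted p = 0.00135, and 0.75 without a call with the control covariate), and Hprt had a difference of 0.02. By qRT-PCR on independent pools of lens RNA, the study found B2m, Hprt and Sdha unchanged between the genotypes. The study gave its qRT-PCR values relative to B2m.

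Sdhc rose most within complex II. Its brighter probe set read 10.18, 9.25, 10.43 and 9.47 in wild type and 10.83, 10.85, 11.44 and 11.24 in dnBrg1 lenses (2.39-fold, 1.26 ± 0.27, adjusted p = 0.00476), and its second rose by 0.96 ± 0.19 (adjusted p = 0.00325). The wild type samples differed among themselves by over a log2 unit, with replicates 2 and 4 lowest. Under the control covariate the brighter probe set turned to -0.25 and the second fell short of a call at 0.22 (adjusted p = 0.734 and 0.777). Sdhd had 0.18 ± 0.11 on its brightest probe set, which was not called, and rose on its second from 10.13, 9.66, 10.14 and 9.72 to 11.11, 10.90, 11.36 and 11.17 (1.22 ± 0.15, adjusted p = 0.000242), a call that was lost with the covariate (0.57, adjusted p = 0.259). Sdhb ran from 11.82 to 12.04 in wild type and from 11.74 to 12.04 in dnBrg1 lenses (-0.06 ± 0.11, not called).

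Complex III held the largest change and opposite calls among its core genes. Of its 9 genes 4 were called higher and 3 lower, 77.8% called against 40.7% of all genes. Uqcrc1, the first of the large core proteins on the matrix side of the complex, read 9.50, 9.77, 9.82 and 9.36 in wild type 1 to 4. It read 11.82, 11.66, 11.81 and 11.91 in dnBrg1 1 to 4, an increase of 4.56-fold (2.19 ± 0.13, adjusted p = 9.65e-06). No dnBrg1 sample came within a log2 unit of a wild type sample, and the change was 2.09 with the control covariate (adjusted p = 0.0145). Uqcrc1 has 1 probe set on the array.

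Its partner core protein Uqcrc2 went the other way. The brighter Uqcrc2 probe set fell from 13.65, 13.77, 13.49 and 13.65 in wild type to 12.93, 12.91, 12.98 and 12.91 in dnBrg1 lenses (1.63-fold lower, -0.71 ± 0.10, adjusted p = 0.000384). The second read 12.37, 12.50, 12.20 and 12.17 against 12.26, 12.24, 12.26 and 12.36, with overlapping groups and a difference of -0.03 ± 0.11 that was not called. Cyc1, the heme protein that passes electrons on to cytochrome c, fell from 11.37, 11.56, 11.16 and 11.48 to 10.82, 10.71, 10.95 and 10.79 (1.49-fold lower, -0.58 ± 0.12, adjusted p = 0.00348). Both decreases kept their direction with the control covariate, at -0.41 and -0.13, without a call.

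The Rieske iron-sulfur protein Uqcrfs1 rose by 0.41 ± 0.10, from 11.46, 11.51, 11.56 and 11.64 to 12.02, 11.92, 12.05 and 11.81 (adjusted p = 0.0094). Among the small subunits the hinge protein Uqcrh rose from 12.90, 12.93, 12.80 and 12.88 to 13.41, 13.38, 13.52 and 13.52 (0.58 ± 0.09, adjusted p = 0.000838). Uqcrb rose from 13.23, 12.83, 13.31 and 13.13 to 13.69, 13.60, 13.63 and 13.60 on its brighter probe set (0.50 ± 0.12, adjusted p = 0.00809) and by 0.44 on the other. These increases had no overlap between the genotypes, but both Uqcrb values turned to -0.04 and -0.08 with the control covariate.

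Uqcrq, another small subunit, fell from 12.32, 11.87, 12.27 and 12.20 to 11.63, 11.32, 11.69 and 11.72 (-0.57 ± 0.14, adjusted p = 0.00834), and it kept that direction with the covariate at -1.05 (adjusted p = 0.0635). Its 3 further probe sets were dim, and 1 of them was called lower (-0.51; -0.22 and not called with the covariate). Uqcr10 read 12.29, 11.98, 12.11 and 12.12 in wild type and 11.83, 11.76, 11.92 and 11.91 in dnBrg1 lenses, without overlap but also without a call (-0.27 ± 0.10, adjusted p = 0.0598), and 1 of its 2 dim probe sets was called lower (-0.43), a call lost without wild type 4 or any 1 dnBrg1 sample (adjusted p from 0.051 to 0.0825). Uqcr11 had -0.31 ± 0.17 with overlapping groups. Without wild type 2 both Uqcr10 and Uqcr11 were called lower (-0.32 and -0.45, adjusted p = 0.0376 and 0.0366), so that complex III had 5 genes lower in place of 3.

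Cycs encodes cytochrome c, the soluble carrier between complexes III and IV. Its 3 probe sets were all called, in opposite directions. The brightest rose from 11.22, 10.94, 11.31 and 11.18 to 11.86, 11.64, 11.94 and 11.63 (1.52-fold, 0.61 ± 0.12, adjusted p = 0.00352), and the second rose from 11.07, 10.97, 11.47 and 11.08 to 11.72, 11.55, 11.82 and 11.73 (0.56 ± 0.13, adjusted p = 0.00722). The third fell from 11.54, 11.67, 11.49 and 11.60 to 10.85, 10.74, 11.00 and 10.78 (1.66-fold lower, -0.73 ± 0.10, adjusted p = 0.000401). None of the 3 overlapped between the genotypes, so that the direction for Cycs depends on the probe set, and where on the transcript the probes of each lie was not analysed here. Under the control covariate they stood at 0.19, 0.01 and -0.53, with no call.

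**Figure D2:**
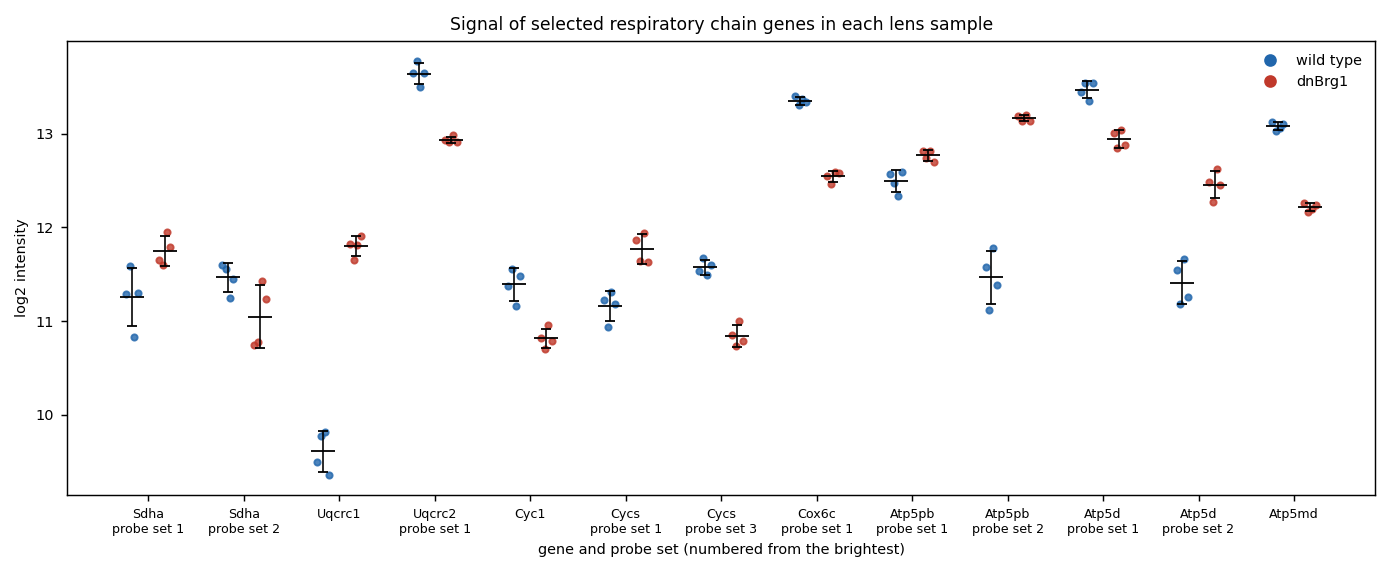
Log2 intensity in each lens sample for selected members, with wild type in blue and dnBrg1 in red. Points are samples (4 per genotype) and black bars the mean ± SD; Uqcrc1 is higher in all 4 dnBrg1 samples, the 2 Cycs and the 2 Atp5d probe sets go opposite ways, and the second Sdha probe set overlaps between genotypes.

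Of the 15 genes of complex IV, the last carrier of electrons in the chain, 33.3% were called (1 higher and 4 lower) on the brightest probe set, against 40.7% of all genes, with a median log2 fold change of -0.19. Cox6c fell most among the bright probe sets, from 13.40, 13.30, 13.37 and 13.34 to 12.55, 12.46, 12.59 and 12.58 (1.75-fold lower, -0.81 ± 0.09, adjusted p = 0.000125), and its second probe set fell by 0.88 (adjusted p = 0.000341). The Cox6c decrease was -0.91 with the control covariate (adjusted p = 0.0334). Cox5b, a nuclear-encoded subunit on the matrix side, fell from 13.95, 13.86, 13.93 and 13.91 to 13.47, 13.43, 13.53 and 13.56 (-0.42 ± 0.09, adjusted p = 0.00447). Of its 6 probe sets 2 were called lower, 2 further bright ones had -0.30 and -0.24 without a call, and 2 were dim. Without wild type 2 both of these bright ones were called lower too (-0.38 and -0.39, adjusted p = 0.017 and 0.0249).

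Cox5a was the complex IV gene called higher. Its brightest probe set rose from 12.71, 12.71, 12.60 and 12.74 to 13.12, 13.07, 13.13 and 13.12 (0.42 ± 0.09, adjusted p = 0.00408). The other 2 bright probe sets of Cox5a stood at 0.00 and -0.01 with overlapping groups, so that the increase was seen on 1 of 3.

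Several complex IV subunits exist as a general form and a form typical of another tissue. Cox4i1, the general form, read 12.74, 12.01, 12.70 and 12.73 in wild type and 12.48, 12.45, 12.61 and 12.51 in dnBrg1 lenses (-0.04 ± 0.17, not called), with wild type 2 far below the rest. Cox4i2, the form known from lung and from low oxygen, fell from 7.47, 8.12, 7.65 and 8.04 to 7.08, 6.79, 7.10 and 6.67 (1.88-fold lower, -0.91 ± 0.17, adjusted p = 0.00249). Its groups did not overlap, its mean lay below the array median, and the call was lost with the covariate (-0.25, adjusted p = 0.717). The general forms Cox6a1, Cox6b1, Cox7a2 and Cox8a were not called on their brightest probe sets.

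Cox6a1 read 13.34, 13.29, 13.32 and 13.30 in wild type and 13.52, 13.35, 13.47 and 13.44 in dnBrg1 lenses on the brightest probe set (0.13 ± 0.09), and its second was called higher at 0.37 (adjusted p = 0.0461) with overlapping groups, a call lost with the covariate (0.08, adjusted p = 0.9) and also without wild type 2 or 4 or dnBrg1 1, 3 or 4 (adjusted p from 0.0826 to 0.113). The muscle form Cox6a2 fell from 7.54, 7.61, 7.70 and 7.59 to 7.32, 7.30, 7.07 and 7.29 (-0.37 ± 0.10, adjusted p = 0.0154), with a mean below the array median. For Cox6b1 the values were 13.46, 13.54, 13.37 and 13.46 against 13.44, 13.39, 13.49 and 13.53 (0.01 ± 0.09). The testis form Cox6b2 read 10.99, 10.99, 10.72 and 10.94 against 10.54, 10.47, 10.88 and 10.80 (-0.24 ± 0.13, not called). No probe set of Cox6b1 or Cox6b2 passed the test over all samples, and the second of Cox6b1 was called lower without wild type 3 (-0.27, adjusted p = 0.0374).

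Cox7a2, the liver form, read 13.96, 14.00, 13.95 and 14.08 in wild type and 13.84, 13.84, 13.87 and 13.88 in dnBrg1 lenses (-0.14 ± 0.09, not called), and its second probe set fell by 0.29 (adjusted p = 0.0324), a call lost without wild type 1 or 4 or dnBrg1 1, 2 or 3 (adjusted p from 0.0606 to 0.0964). The muscle form Cox7a1 was dim, with 6.28, 6.80, 6.88 and 7.14 against 6.38, 6.33, 6.63 and 6.63 (-0.29 ± 0.18, not called). Cox8a read 11.57, 11.36, 11.45 and 11.41 against 11.35, 11.23, 11.39 and 11.40 (-0.11 ± 0.09), and the muscle form Cox8b 5.67, 6.39, 5.58 and 6.40 against 5.41, 5.63, 5.36 and 5.62 (-0.51 ± 0.20, adjusted p = 0.0756). Cox8c and Cox7c were dim on all their probe sets and were not called. Of the muscle forms Cox6a2 alone passed the test over all samples, lower in dnBrg1 lenses. Cox7a1 was called lower without wild type 1 (-0.45, adjusted p = 0.0334), and Cox8b without wild type 1 or 3 (-0.62 and -0.65, adjusted p = 0.0473 and 0.0237).

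Complex V held calls in both directions. Of its 17 genes 8 were called higher, 5 lower and 4 not, with a median log2 fold change of 0.06. That was 76.5% called, against 40.7% of all genes. In the catalytic head, made of the α, β, γ, δ and ε subunits (Atp5a1, Atp5b, Atp5c1, Atp5d and Atp5e), all 5 genes were called on the brightest probe set, 2 higher and 3 lower. The catalytic β subunit Atp5b rose 2.14-fold, from 12.22, 11.87, 12.19 and 12.10 to 13.25, 13.10, 13.29 and 13.14 (1.10 ± 0.11, adjusted p = 8.22e-05). Atp5c1, the central shaft, rose from 12.75, 12.72, 12.69 and 12.57 to 13.19, 13.17, 13.25 and 13.26 (0.54 ± 0.09, adjusted p = 0.00135). Neither overlapped between the genotypes, and both kept their direction with the control covariate, at 0.71 and 0.51, without a call.

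Atp5d and Atp5a1 had probe sets called in opposite directions. The brighter Atp5d probe set fell from 13.44, 13.54, 13.35 and 13.54 to 13.01, 12.85, 13.04 and 12.88 (-0.53 ± 0.10, adjusted p = 0.00236). The other rose from 11.54, 11.18, 11.66 and 11.26 to 12.49, 12.27, 12.62 and 12.45 (2.06-fold, 1.04 ± 0.14, adjusted p = 0.000322). Both calls were lost with the covariate, at -0.30 and 0.44 (adjusted p = 0.421 and 0.304). Both are annotated with the suffix for probes shared by several transcripts. For Atp5a1, the α subunit, the brightest probe set fell from 13.66, 13.76, 13.44 and 13.67 to 13.35, 13.37, 13.32 and 13.33 (-0.29 ± 0.10, adjusted p = 0.0413), and the third in brightness rose from 12.20, 12.08, 12.06 and 12.04 to 12.68, 12.65, 12.90 and 12.82 (0.67 ± 0.10, adjusted p = 0.000639). The middle probe set had -0.19 ± 0.09, which was not called. The decrease of Atp5a1 was lost when any sample but wild type 3 was left out (adjusted p from 0.0748 to 0.0899) and turned to 0.06 with the control covariate, while the increase stood at 0.63 with it.

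Atp5e, the ε subunit, fell from 13.74, 13.27, 13.90 and 13.52 to 13.14, 13.08, 13.27 and 13.29 (-0.41 ± 0.14, adjusted p = 0.0444). Its groups overlapped through wild type 2, and the call was lost when any sample but wild type 2 was left out (adjusted p from 0.064 to 0.106). Under the control covariate the decrease was larger (-1.17, adjusted p = 0.0212). Complex V had 3 genes lower in place of 5 without wild type 1 or 4 or any 1 dnBrg1 sample, since the calls of Atp5a1 and Atp5e were lost there.

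In the stalk and membrane part of the enzyme the largest increase was that of Atp5pb, the b subunit of the outer stalk. Its second probe set rose 3.24-fold, from 11.58, 11.12, 11.78 and 11.39 to 13.19, 13.13, 13.20 and 13.14 (1.70 ± 0.14, adjusted p = 3.23e-05), and stood at 0.93 with the control covariate (adjusted p = 0.0275). The brightest one read 12.57, 12.47, 12.33 and 12.60 against 12.82, 12.74, 12.82 and 12.70 (0.28 ± 0.10, adjusted p = 0.049), a call that was lost when any 1 of the 8 samples was left out (adjusted p from 0.0525 to 0.119). Both had the same direction and differed in size. Atp5j, the coupling factor of the same stalk, rose 2.71-fold, from 11.79, 11.36, 11.93 and 11.58 to 13.06, 13.05, 13.15 and 13.15 (1.44 ± 0.13, adjusted p = 5.14e-05). With the covariate this was 0.76 and not called (adjusted p = 0.05).

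Atp5h, the d subunit of the stalk, rose by 0.47 and 0.90 on its probe sets (adjusted p = 0.0108 and 0.00295), both of which turned to -0.06 and -0.11 with the covariate. Atp5o, which joins the stalk to the head, had 0.06 on the brightest probe set, which was not called, and rose by 0.47 on the other (adjusted p = 0.00408; 0.22 and not called with the covariate). Subunit c, the ring that turns in the membrane, is encoded by 3 genes. Atp5g1 rose by 0.64 ± 0.10 (adjusted p = 0.000862) and Atp5g3 by 0.34 ± 0.09 (adjusted p = 0.0123), whereas Atp5g2 had -0.42 ± 0.16 with overlapping groups (adjusted p = 0.0643), which was called without wild type 2 (-0.57, adjusted p = 0.00667). Under the control covariate Atp5g2 was called lower (-1.31, adjusted p = 0.0191).

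The largest decreases of complex V were those of the small membrane subunits Atp5md and Atp5l. Atp5md fell from 13.13, 13.03, 13.06 and 13.11 to 12.26, 12.17, 12.19 and 12.23 (1.82-fold lower, -0.87 ± 0.09, adjusted p = 7.87e-05), and remained called with the control covariate at -0.91 (adjusted p = 0.0323). Atp5l fell from 12.84, 12.58, 12.73 and 12.89 to 12.00, 11.84, 11.91 and 12.06 (1.75-fold lower, -0.80 ± 0.11, adjusted p = 0.000357). Neither overlapped between the genotypes. Atp5k rose by 0.44, 0.40 and 0.37 on its 3 probe sets (adjusted p from 0.0283 to 0.0492). All 3 turned with the covariate, to values between -0.28 and -0.31. The brightest was lost without wild type 4 or dnBrg1 1, 3 or 4 (adjusted p from 0.0624 to 0.0702), and the others also without wild type 1 or 2 or dnBrg1 2 (up to 0.112). Atp5j2 fell by 0.38 on its dimmer probe set (adjusted p = 0.0237; not called without wild type 1 or 4 or dnBrg1 1, 2 or 4, up to 0.0628) and had -0.28 without overlap on the brighter (adjusted p = 0.0525), which was called without wild type 2 (-0.35, adjusted p = 0.0184). Atp5mpl stood at 0.00 ± 0.13.

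Of the 9 genes that are not counted as subunits 1 was called on the brightest probe set. Cox17, a copper chaperone for complex IV, rose from 11.44, 11.24, 11.42 and 11.16 to 11.83, 11.71, 11.97 and 11.88 (0.53 ± 0.11, adjusted p = 0.00372), which was lost with the covariate (0.25, adjusted p = 0.554). Cox15, which makes the heme a of complex IV, had 0.23 ± 0.16 on its brightest probe set with overlapping groups. It rose on the other 3, from 8.82, 8.82, 8.90 and 8.68 to 9.90, 9.97, 9.60 and 9.70 on the second (0.99 ± 0.11, adjusted p = 0.000172), by 0.81 on the third and by 0.34 on a dim one, where the call was lost with the covariate (0.16) and without wild type 2 or 4 or dnBrg1 2, 3 or 4 (adjusted p from 0.0589 to 0.0911). Cox7a2l, known for joining complexes III and IV, rose by 0.48 on 1 of 3 probe sets (0.26 and not called with the covariate). Cox16, Cox18, Cox19 and the complex II factors Sdhaf1, Sdhaf2 and Sdhaf4 were not called over all samples. Without wild type 3 Sdhaf1 (-0.48) and Cox19 (-0.43) were called lower, and without wild type 1 the dim probe set of Cox16 (-0.44), with adjusted p = 0.0131, 0.0381 and 0.0276. For Cox19 the difference of -0.17 became an increase of 1.34 with the control covariate (adjusted p = 0.0335).

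Probe sets of the same gene were compared for the 23 member genes that have at least 2 bright ones. Taking the brightest and the next, 8 genes were called in the same direction on both (Atp5h, Atp5k, Atp5pb, Cox5b, Cox6c, Cycs, Sdhc and Uqcrb), 1 in opposite directions (Atp5d), 11 on 1 of the 2, and 3 on neither. Among 2351 genes of the array these counts were 510, 226, 1017 and 598, so that the share called in opposite directions was 4.35% for the members and 9.61% for all. The member share rests on 1 gene and leaves out further probe sets. Over all probe sets 3 member genes had opposite calls, Atp5d, Cycs and Atp5a1, and no such share is given here for the array. Counting every probe set, 37 of the 55 genes (67.3%) had a call on at least 1, against 50.7% of all genes. A gene with several probe sets has more chances of a call: of the 30 such members 24 had one, against 70.8% of such genes on the array.

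With the control covariate 5 member probe sets were called higher and 6 lower, against backgrounds of 3.57% and 2.80% of all probe sets. Of the 52 calls made without it 8 were kept: Uqcrc1, Sdha, 1 probe set each of Atp5pb and Cox15 (higher), and Atp5md, Cox6c, Atp5e and 1 of Atp5j2 (lower). Another 35 kept their sign without a call. In 18 of these the value was not more than 1.5 times smaller, namely on probe sets of Uqcrfs1, Uqcrh, Atp5c1, Atp5g1, Atp5g3, Atp5a1, Atp5pb, Cox5a and Cox15 (higher) and of Uqcrq, Uqcr10, Cycs, Cox5b (both), Cox6a2, Cox6c, Cox7a2 and Atp5l (lower). The last 9 turned sign with none of them called (lowest adjusted p = 0.362). Of the 48 members not called without the covariate 22 turned sign with it, 21 of them still without a call. The median standard error of the members rose from 0.12 to 0.23 when the covariate was added. A further 3 probe sets were called with it alone, those of Atp5g2, Cox19 and 1 of Cox5b (-1.06).

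**Figure D3:**
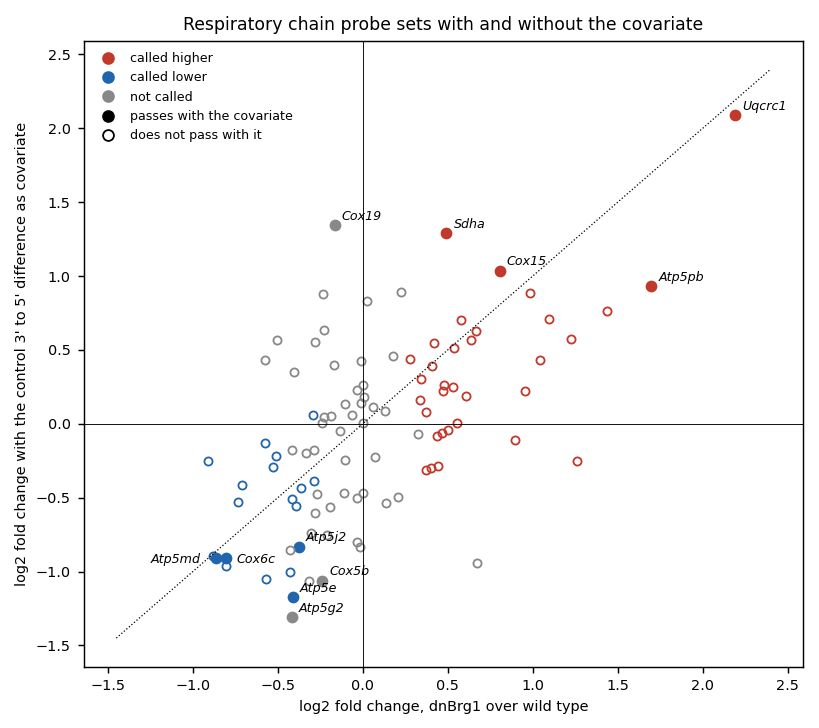
Log2 fold change of the 100 member probe sets without a covariate (x axis) and with the control covariate of the 3' to 5' gap (y axis); the dotted line marks equal values. Colors give the call without the covariate and filled points pass with it; 11 are filled, Uqcrc1 lies near the line at 2.19 and 2.09, and the 9 called points in the other quadrants are those that turned sign.

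Patterns among samples of a genotype are given as values. Wild type 2, which had the largest control 3' to 5' difference of the 8 samples (2.66), was the lowest of the wild type samples on 48 of the 100 member probe sets, where it was lowest on 33.1% of all probe sets, and the highest on 24 (26.6% of all). On the 48 the median log2 fold change was 0.07 without and -0.43 with the control covariate, and on the 24 it was -0.14 and 0.33. These probe sets were chosen by the sample with the largest covariate value. The choice largely fixes the direction of both shifts in advance, and no conclusion is drawn from them. Wild type 1 was the highest on 31 of the 100 (14.2% of all) and the lowest on 9 (22.2% of all). The part of the control difference in these values was not tested.

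The dnBrg1 samples described as polysome RNA, 1 and 2, were both below the pair described as total RNA on 43 of the 100 member probe sets (17.9% of all probe sets) and both above it on 8 (21.0% of all). The difference was small, with a median of -0.06 over the members and 0.01 over all probe sets. A limma fit of 3 groups, with the dnBrg1 samples split by this description, called none of the 22626 probe sets in this contrast; at an unadjusted p under 0.05 it gave 645 in all, among which 1 member was lower and 2 were higher in dnBrg1 1 and 2. When wild type was set against dnBrg1 1 and 2 alone, 16 member probe sets were called higher and 12 lower, and against dnBrg1 3 and 4 alone 21 and 10. The shares called over all probe sets in these fits are not given here, and no conclusion is drawn from the counts.

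**Figure D4:**
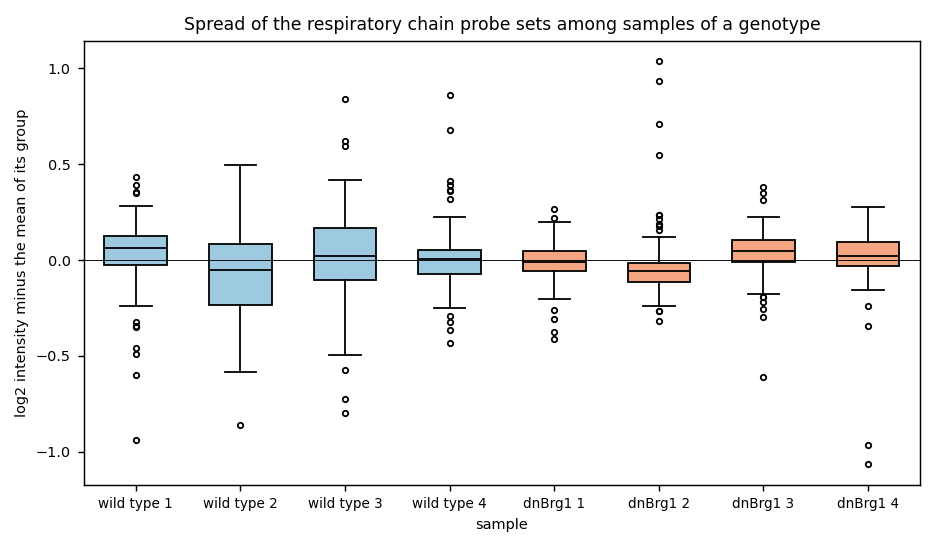
Log2 intensity of the 100 member probe sets minus the mean of the same genotype, for each sample. Boxes span the quartiles with the median as a line, whiskers reach 1.5 box lengths and circles lie beyond; the boxes of wild type 2 and 3 are widest, and dnBrg1 2 has the lowest median at -0.06.

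The other genes around the respiratory chain moved in both directions too. Of all genes on the array 17.5% were called higher and 23.3% lower, 40.7% in either direction. The share called was 60.6% for complex I and 50.0% for the assembly factors below. It was 56.25% for the citric acid cycle list, 33.3% for the carriers and channels, and 41.7% for the nuclear regulators. Of 33 complex I subunits 6 were called higher and 14 lower (median -0.08); Ndufb10 rose from between 10.25 and 11.17 to between 12.54 and 12.81, Ndufa4 rose by 1.33 ± 0.12, and Ndufv1 and Ndufa5 both fell by 1.11. Of these 4 Ndufa5 remained called with the covariate (-1.36, adjusted p = 0.0131). Of the further Ndufv1 probe sets one was called lower (-1.07) and another higher (0.43, adjusted p = 0.0269). The dimmer Ndufa5 probe set was not called (-0.44). Of 18 assembly factors of complexes II to V that the symbol rule leaves out 4 were called higher and 5 lower. The complex III factor Bcs1l, which inserts the Rieske protein, fell from 10.93, 11.15, 10.67 and 11.04 to 9.20, 9.38, 9.49 and 9.37 (-1.59 ± 0.13, adjusted p = 2.94e-05). The complex IV factors Coa6 and Pet100 fell by 1.54 and 1.41. These 3 decreases remained called with the control covariate, at -1.05, -1.34 and -2.62. The dimmer Pet100 probe set had 0.08 and was not called.

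Of 16 genes of the citric acid cycle and pyruvate dehydrogenase 5 were called higher and 4 lower. Dlst, a subunit of the 2-oxoglutarate dehydrogenase complex, rose by 1.49 ± 0.11 (1.02 with the covariate, adjusted p = 0.0266), Idh2 and Dld each rose by 1.02 and Suclg2 by 0.93. Of 6 carriers and channels for ATP and phosphate 1 was called higher, the ADP/ATP translocase Slc25a5 (1.11 ± 0.13), and 1 lower, the outer membrane channel Vdac1 (-0.27 ± 0.09). Among 12 nuclear regulators of respiratory genes 1 was called higher and 4 lower. Polrmt, the mitochondrial RNA polymerase, fell from 10.67, 10.87, 10.20 and 10.67 to 8.41, 8.46, 8.44 and 8.15 (-2.23 ± 0.15, adjusted p = 1.57e-05), and the coactivator Ppargc1a and the receptor Esrra fell by 1.32 and 1.28. Tfb2m, a mitochondrial transcription factor, rose by 1.22 ± 0.13. Polrmt and Esrra remained called with the covariate (-1.50 and -1.82), while Idh2, Dld, Suclg2, Slc25a5, Vdac1, Ppargc1a and Tfb2m were not called with it. The dimmer Polrmt probe set fell by 0.67 (adjusted p = 0.00628) and stood at -0.03 with the covariate, without a call (adjusted p = 0.966). The further Ppargc1a probe sets ran from -0.42 to 1.21 without the covariate, and none of them was called.

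Markers of other tissues that a dissected lens may carry were measured beside the members. Their calls stand against 17.5% called higher and 23.3% called lower over all genes. Of 17 skeletal muscle markers 5 were called higher and none lower, and their summed intensity ran from 1357 to 2016 in wild type and from 1727 to 10342 in dnBrg1 samples, highest in dnBrg1 4 and 2. Over the muscle forms Cox6a2, Cox7a1 and Cox8b the sum ran from 315 to 418 in wild type and from 274 to 305 in dnBrg1 samples. Of 10 retina and neuron markers 2 were called higher and 7 lower (summed intensity 15083 to 21362 against 10453 to 15164), and of 7 macrophage markers 3 and 2 (3754 to 5043 against 1617 to 3055). A sum is weighted to the brightest probe sets of its list. Most of the macrophage sum in wild type came from Csf1r, which fell by 2.13. Ptprc was called lower too, and Lyz2, Cx3cr1 and Fcgr3 were called higher. Of 7 lens markers 3 were called higher, Bfsp1, Gja3 and Pax6 (none of them with the covariate), and the sum of all 7 was 47753 to 56836 in wild type and 61852 to 68363 in dnBrg1 samples. Bfsp1 rose by 1.54, while Cryaa and Mip had 0.04 and -0.05 on their brightest probe sets and were not called. The dimmer Mip probe set was called higher (1.34, adjusted p = 0.00589) and had -0.52 without a call with the covariate. Of 7 mesenchyme markers none was called, and their sum was 12366 and 12180 in dnBrg1 1 and 4, 3813 and 4139 in dnBrg1 2 and 3, and 4311 to 7444 in wild type. The sum of 5 red blood cell markers, none of them called, was 13730 in dnBrg1 3, 2649 in dnBrg1 4 and 5175 to 8982 in wild type. Of 6 pigment cell markers 2 were called lower, and of 7 vascular endothelium markers 3 were called higher and 2 lower. On the brightest probe sets, none of the calls in these marker lists remained with the control covariate. No marker of any list was at 0, and the part of other cells in the members' values was not tested.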

How the data were processed

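RNA of whole E15.5 lenses, 4 wild type and 4 dnBrg1 samples by the labelled genotype, was hybridized to Affymetrix mouse genome arrays. The authors processed the scans with robust multichip average (RMA), and deposited intensities on a linear scale (3.64 to 28468), of which log2 was taken here. RMA makes the arrays' distributions alike, which would remove a shift common to most genes. Precision is limited by the number of arrays.

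Of 22690 probe sets 64 controls were left out and 22626 tested with limma 3.58.1 (lmFit and eBayes, R 4.3.3), dnBrg1 minus wild type, with Benjamini-Hochberg adjustment over all of them and a threshold of 0.05. The step was tested on simulated data. Probe sets naming several genes (691) or none (1555) stayed in the fit but named no member. The p-values set the difference between the genotypes against the spread among these samples, as moderated by limma over all probe sets.

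The members and gene lists were chosen with earlier results of these data known. Values in every sample are given for Uqcrc1, Sdha, Cyc1, Cycs, up to 4 called increases and 4 decreases per complex, tissue isoform pairs and genes with opposite calls; other lists name up to 4 called genes. Genes correlated with Uqcrc1 and Sdha were to be named but are left out, since the 8 samples form 2 clusters by genotype. Alternatives covered scaling, an added constant of 16, dim probe sets, the variance model, the replicate number as a block, a covariate for the control 3' to 5' gap, the described RNA, the methods' t-test (Student's, on log2 values), a 1.5-fold threshold, the mean over a gene's probe sets and each sample left out; the fit of dnBrg1 samples by description was added after seeing the data. Promoter windows are from RefSeq on GRCm38.p6; the build behind the array annotation was not stated in any source used.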

Additional observations from a re-analysis of the deposited data

Results flagged for a closer look

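In 4 of the 200 groups of 4 member values (100 probe sets in 2 genotypes) 1 sample stood apart by Dixon's criterion, where chance gives about 1 in 20 groups. Cox6a2 read 7.07 in dnBrg1 replicate 3, below 7.29 to 7.32 in the other dnBrg1 samples. The dimmer Uqcrc2 probe set read 12.36 in dnBrg1 replicate 4, above 12.24 to 12.26. Wild type replicate 2 stood below the other wild type samples on the brighter Atp5j2 probe set, at 13.43 against 13.68 to 13.72, and on Cox4i1, at 12.01 against 12.70 to 12.74.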

How the results depend on the processing

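Of the 52 member calls 46 remained after centring the arrays, 47 after quantile normalization, all 52 with 16 added before log2, 51 with an intensity trend and robust variance, and 46 with the methods' t-test after adjustment, and no sign changed. With the control covariate 5 member probe sets were higher and 6 lower, and 3 genes were higher and 4 lower, with 1, 1, 0 and 0 higher in complexes II, III, IV and V and 0, 1 and 3 lower in III, IV and V. Among the 52 calls the signs that turned under it were those of Sdhc (-0.25), Uqcrb (-0.0398 and -0.0817), Atp5a1 (0.0621), Atp5h (-0.0637 and -0.11) and Atp5k (-0.285, -0.298 and -0.311); Cox19, not called before, was called with the opposite sign (1.345), and 21 other uncalled members turned sign without a call. The cause was not tested.

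Against dnBrg1 1 and 2 alone 16 probe sets were higher and 12 lower, 7 genes were higher, and complexes II to V had 0, 2, 0 and 4 higher and complex V 3 lower. Against dnBrg1 3 and 4 alone 21 and 10 probe sets and 10 and 7 genes were called; complexes II, III and V had 1, 2 and 4 higher, and IV and V 2 and 3 lower. These fits hold fewer samples. For them and for the settings that follow, the shares called over all probe sets are not given here. At 1.5-fold 14 probe sets were higher and 7 lower, 6 and 5 genes, with 1, 1, 0 and 3 higher in complexes II to V and 1, 2 and 2 lower in III to V. Complex II had 1 gene higher after centring, quantile normalization and the adjusted t-test, complex IV 2 higher with the t-test at either threshold, and 2 lower among bright probe sets only.

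Residuals of same-numbered samples correlated at -0.19, -0.01, -0.05 and 0.16, and not every sample correlated best with its own number. Whether same-numbered samples were matched by litter or handling cannot be told from these values. With the replicate number as a block 41 of the 52 calls remained, complex II had 1 gene higher and complex V 3 lower. Leaving out each sample gave 26 to 31 probe sets and 14 to 16 genes higher, and 14 to 24 and 10 to 15 lower. By complex it gave 1 to 2 higher in II, 4 in III, 1 in IV and 6 to 7 in V, and 0 lower in II, 3 to 5 in III, 4 to 6 in IV and 3 to 6 in V.

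With 4 arrays a genotype, small differences stay below the threshold, and dim probe sets bear on little: 20 of the 100 lay below the array median.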
